A study of Mus musculus with 180 samples.

Results

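The immediate early response genes examined here were Fos, Fosb, Jun, Junb, Jund, Egr1, Ier2, Dusp1, Zfp36 and Nr4a1, chosen by name. All 10 were among the 14825 genes of the deposited table, and all 10 were among the 10856 genes kept by the filter, which asks that 1 population or more have a value of at least 1 TPM in 10% of its cells. The table gives TPM, a transcript abundance divided by transcript length and scaled to the same sum in every cell, for single cells of 4 mouse populations of the C57BL/6 strain. BM HSC were haematopoietic stem cells from the bone marrow of 8-week-old mice (36 cells), WT-MPP were multipotent progenitors from 8-week-old mice (41 cells), and FL HSC were stem cells of the fetal liver at Day14.5 (56 cells), although their tissue label reads bone marrow. These 3 populations came from Rosa LSL-Hoxb5-EGFP/+ mice (written Hoxb5LSL/+ in the labels) without a Cre, in which the Hoxb5-EGFP cassette stays silent. CD11b+CD48+SK cells (47 cells, labelled CD48+Mac1+SK) were donor-derived cells taken from primary recipients at week 8 after transplantation of MPP from Mx1cre/Rosa LSL-Hoxb5-EGFP/+ mice into irradiated CD45.1+ recipients with Sca1- helper cells. In them the Mx1 promoter, induced with pIpC, drove the Cre that released Hoxb5. Recipients of MPP without Cre were not among the 4 populations, so Hoxb5, transplantation, irradiation, pIpC and sort gate cannot be told apart. The labels name no animal for a cell, so each population is 1 sample, the cells of 1 population are not replicates, and no test between populations was made. SDs are taken over cells and intervals beside percentages are exact (Clopper-Pearson) at 95%, which cover counting error only.

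Immediate early response genes are transcribed within minutes of a signal, from promoters held ready and without new protein synthesis. Growth factor and stress signals reach them through the MAP kinases and the transcription factors SRF with its ternary complex partners, and CREB. Their products are transcription factors (the AP-1 subunits of the Fos and Jun families, Egr1 and the orphan nuclear receptor Nr4a1), the nuclear protein Ier2, and feedback proteins that end the response, namely the MAP kinase phosphatase Dusp1 and Zfp36 (tristetraprolin), which binds AU-rich elements and destabilises mRNA. They are also known to be induced by handling and dissociation of cells. Bone marrow cells were enriched with Sca1 antibody and magnetic beads before sorting. Each population had its own sort gate. BM HSC and WT-MPP shared a source, the bone marrow of mice of the same age without Cre, and the other populations differed in source. No label names the preparation of a cell, so preparation and population cannot be told apart.

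The promoters of the genes with the plainest matches to the binding motifs of these factors are shown because they hold the letters through which such signals are known to act. Of the 10 genes, 8 matched a promoter in RefSeq (GRCm38.p6), and the windows are the 250 bases before the RefSeq start, 5′ to 3′ on the gene's strand. These starts differ from the gene models used below for some genes. The Zfp36, Dusp1 and Nr4a1 windows lie inside their models, and the Jund window ends at 70697738 against a model start at 70698949. Capitals mark TATAAA and TGACG, the core of the CREB site, in Fos, the CArG box bound by SRF in Zfp36, TGACGTCA and TGACG in Dusp1, and CGTCA, which is TGACG on the other strand, in Nr4a1.
Fos (plus strand, chr12:85473640-85473889): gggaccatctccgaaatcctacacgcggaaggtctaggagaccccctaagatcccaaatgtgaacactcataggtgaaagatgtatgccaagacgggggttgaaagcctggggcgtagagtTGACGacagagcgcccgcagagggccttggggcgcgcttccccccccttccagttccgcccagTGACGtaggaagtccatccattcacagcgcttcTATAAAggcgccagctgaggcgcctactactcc
Zfp36 (minus strand, chr7:28379229-28379478): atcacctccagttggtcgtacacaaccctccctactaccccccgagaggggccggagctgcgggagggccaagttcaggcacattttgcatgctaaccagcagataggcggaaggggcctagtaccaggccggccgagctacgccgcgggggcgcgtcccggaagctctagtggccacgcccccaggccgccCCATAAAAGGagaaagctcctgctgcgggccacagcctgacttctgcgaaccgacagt
Dusp1 (minus strand, chr17:26508473-26508722): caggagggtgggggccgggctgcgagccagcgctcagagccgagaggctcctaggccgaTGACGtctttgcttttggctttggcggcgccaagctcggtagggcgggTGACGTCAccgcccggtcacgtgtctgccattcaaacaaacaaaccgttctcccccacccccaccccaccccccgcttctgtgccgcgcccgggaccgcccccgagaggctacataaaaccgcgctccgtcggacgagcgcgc
Nr4a1 (plus strand, chr15:101266596-101266845): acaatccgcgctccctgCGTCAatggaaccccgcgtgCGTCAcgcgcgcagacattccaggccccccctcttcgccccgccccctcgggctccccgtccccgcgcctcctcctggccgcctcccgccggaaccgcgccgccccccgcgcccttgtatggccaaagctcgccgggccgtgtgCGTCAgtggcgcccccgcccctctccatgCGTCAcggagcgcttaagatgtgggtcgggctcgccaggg
Both strands were searched. TGACG, which is also part of TGACGTCA, was in 5 of the 8 windows (Fos, Fosb, Junb, Dusp1 and Nr4a1) against 17.8% of 32851 promoters of the same length and 27.6% of the 10269 promoters of genes past the filter, and Nr4a1 held it at 4 places. TGACGTCA was in the Dusp1 window alone, 143 to 136 bases before the start, against 1.55% of promoters and 2.57% of those of filtered genes. A CArG box was in the Zfp36 window alone, 58 to 49 bases before the start, against 1.47% and 1.1%. TATAAA was in the Fos window alone, against 12.4% and 6.09%. GGGCGG, the core of the GC box, was in 6 of the 8 windows, against 32.7% of promoters and 58.1% of those of filtered genes. The AP-1 motif TGACTCA or TGAGTCA and the Egr1 motif GCGTGGGCG were in none of the 8, against 4.46% and 0.536% of promoters (3.01% and 1.08% of those of filtered genes). These matches describe letters within 250 bases and were not tied to binding.

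Most of the genes are short: their median gene length on GRCm38 was 3853 bases against 22801 bases over 9803 protein-coding genes past the filter. Of the 10, 4 (Jun, Junb, Jund and Ier2) had a single-exon model against 2.38%. The models of Dusp1 (56539 bases, with a transcript of 1990 bases) and Nr4a1 (20527 bases) are the longest. Fos lies at chr12:85473890-85477273 with 4 exons, Jun at chr4:95049034-95052222, Junb at chr8:84974484-84978718 and Zfp36 at chr7:28376784-28380253. The models of Jun, Junb, Jund, Dusp1 and Zfp36 overlap other annotated genes (Junos, Prdx2 and Gm11175 for the first 3, and Ergic1 among others for Dusp1). The strand setting of the counting was not given in the sources used here, so reads of such partners may be shared.

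All 10 genes had their highest mean level in BM HSC, and 9 of 10 had their lowest in CD11b+CD48+SK cells (Fosb was lowest in WT-MPP). Jun was nearly as high in WT-MPP, and under another scaling of the cells it was highest there. Levels are means over cells of log2(TPM+1), and a difference is the difference of these means. The order BM HSC, WT-MPP, FL HSC, CD11b+CD48+SK from high to low held for 7 genes, while Jund and Nr4a1 were higher in FL HSC than in WT-MPP. The spread over cells was wide. Of the 30 differences between populations next to each other in these orders, 1 exceeded the larger of the 2 SDs over cells (Dusp1 between FL HSC and CD11b+CD48+SK), so the other neighbours did not differ beyond their spread. Between the ends, BM HSC and CD11b+CD48+SK, 6 of 10 exceeded it (Fos, Junb, Egr1, Ier2, Dusp1 and Zfp36). The count was 3 between CD11b+CD48+SK and WT-MPP (Fos, Dusp1 and Zfp36) and 2 between FL HSC and BM HSC (Egr1 and Ier2). It was 1 between CD11b+CD48+SK and FL HSC (Dusp1). Between WT-MPP and BM HSC, and between FL HSC and WT-MPP, it was 0.

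**Figure D1:**
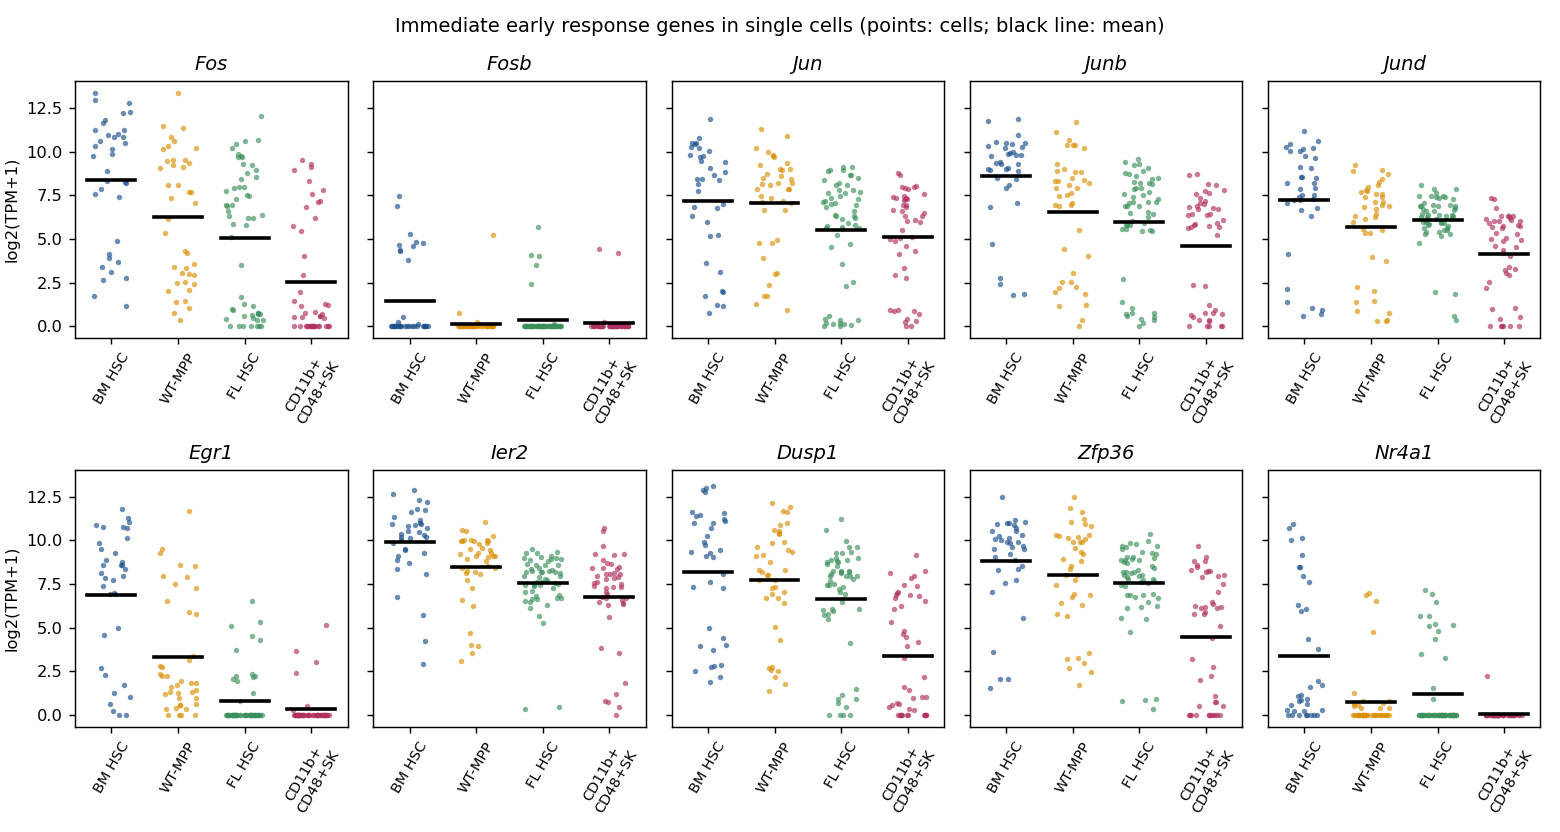
Level of each gene as log2(TPM+1) in every cell of BM HSC (36 cells), WT-MPP (41), FL HSC (56) and CD11b+CD48+SK (47). Points are cells and black lines are means, and for Egr1 the means go from 6.86 in BM HSC to 0.32 in CD11b+CD48+SK.

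Of the AP-1 subunits, Fos, the partner that dimerises with Jun proteins, differed most from BM HSC in each other population on the log2(TPM+1) scale. Fos ranged from 1.24 to 10550 TPM in BM HSC with a median of 886 TPM. In WT-MPP it ranged from 0.278 to 10480 TPM (median 134.6 TPM), in FL HSC from 0 to 4265 TPM (median 75.9 TPM), and in CD11b+CD48+SK cells from 0 to 717 TPM (median 0.526 TPM). The ranges overlapped in every population, and most CD11b+CD48+SK cells held less Fos than the lowest BM HSC. That lowest value is small (1.24 TPM), and BM HSC libraries had more genes between 0 and 1 TPM per cell (median 1446 against 699). The part of such low values in this comparison was not tested. The mean log2(TPM+1) was 8.40 ± 3.66 (SD, n = 36) in BM HSC, 6.23 ± 3.71 in WT-MPP, 5.08 ± 3.97 in FL HSC and 2.51 ± 3.36 in CD11b+CD48+SK cells. At 10 TPM or more Fos was found in 83.3% of BM HSC (interval 67.2 to 93.6%) and in 29.8% of CD11b+CD48+SK cells (17.3 to 44.9%), with WT-MPP at 63.4% and FL HSC at 60.7% between them. Each population held cells above and below that level. Bands are seen in the plot of cells, but in BM HSC and WT-MPP the level of 10 TPM cuts through the lower values and not between bands. Some cells of the lower values there are therefore counted as holding Fos.

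Fosb, the other Fos family member, was rare. Its median was 0 TPM in all 4 populations, with highest values of 176 TPM in BM HSC, 36.8 TPM in WT-MPP, 50.9 TPM in FL HSC and 20.1 TPM in CD11b+CD48+SK cells. In counts, 10 of 36 BM HSC, 1 of 41 WT-MPP, 4 of 56 FL HSC and 2 of 47 CD11b+CD48+SK cells reached 10 TPM. The interval of BM HSC (14.2 to 45.2%) lay above that of WT-MPP (0.0617 to 12.9%). It overlapped those of FL HSC and CD11b+CD48+SK cells. These intervals cover counting error over cells only, so they are no test between populations.

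Jun, Junb and Jund, the basic leucine zipper partners of Fos, were present in most cells of every population. Jun ranged from 0.685 to 3649 TPM in BM HSC (median 335 TPM), 0.892 to 2510 TPM in WT-MPP (median 235 TPM), 0 to 553 TPM in FL HSC (median 80.1 TPM) and 0 to 429 TPM in CD11b+CD48+SK cells (median 68.0 TPM). Jun was close in BM HSC and WT-MPP (7.20 ± 3.27 against 7.06 ± 2.82 on the log2 scale) and lower in the other two. Junb ranged from 2.46 to 3681 TPM in BM HSC (median 638 TPM), 0 to 3323 TPM in WT-MPP (median 193 TPM), 0 to 769 TPM in FL HSC (median 116.5 TPM) and 0 to 424 TPM in CD11b+CD48+SK cells (median 57.7 TPM). Its means followed the order of its medians, from 8.58 ± 2.65 in BM HSC to 4.58 ± 3.10 in CD11b+CD48+SK cells. Jund, the Jun family member known for steady expression, ranged from 0.489 to 2282 TPM in BM HSC (median 237 TPM), 0.220 to 596 TPM in WT-MPP (median 103 TPM), 0.309 to 266 TPM in FL HSC (median 78.0 TPM) and 0 to 159.6 TPM in CD11b+CD48+SK cells (median 29.7 TPM). Jund varied less among FL HSC than among BM HSC, with an SD of 1.57 against 3.13 in BM HSC, and 52 of 56 FL HSC held 10 TPM or more.

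Egr1, a zinc finger factor known to restrain the cycling and exit of stem cells from their niche, had the largest difference in mean log2(TPM+1) between BM HSC and each other population. When TPM was averaged before the log2, Nr4a1 (-4.45) and Fosb (-2.90) differed more than Egr1 (-1.98) between WT-MPP and BM HSC. It lies at chr18:34859823-34864984 with 2 exons. Egr1 ranged from 0 to 3477 TPM in BM HSC (median 265 TPM), 0 to 3247 TPM in WT-MPP (median 2.60 TPM), 0 to 89.3 TPM in FL HSC (median 0 TPM) and 0 to 34.9 TPM in CD11b+CD48+SK cells (median 0 TPM). The highest FL HSC and the highest CD11b+CD48+SK cell lay below the BM HSC median, while the highest WT-MPP came near the highest BM HSC. The mean log2(TPM+1) was 6.86 ± 3.76 in BM HSC, 3.31 ± 3.30 in WT-MPP, 0.80 ± 1.62 in FL HSC and 0.32 ± 1.05 in CD11b+CD48+SK cells. Between FL HSC and BM HSC the difference of -6.07 was the 4th lowest of 10856 genes.

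How many cells hold Egr1 depends on the level asked for. At 1 TPM it was in 70.7% of WT-MPP, but at 10 TPM in 29.3% (interval 16.1 to 45.5%), against 75% (57.8 to 87.9%) of BM HSC, 10.7% of FL HSC and 4.26% of CD11b+CD48+SK cells. Egr1 lay between these levels in many WT-MPP but in few cells of the other populations. BM HSC and WT-MPP had more genes between 0 and 1 TPM per cell (medians 1446 and 1392 genes) than FL HSC and CD11b+CD48+SK cells (699 genes in both). The part of this difference between libraries in the low values was not tested, and shares of the 10 genes are therefore given at 10 TPM.

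Nr4a1, an orphan nuclear receptor, was found in the fewest cells after Fosb among BM HSC and WT-MPP. It ranged from 0 to 1936 TPM in BM HSC (median 1.17 TPM), 0 to 127 TPM in WT-MPP, 0 to 144 TPM in FL HSC and 0 to 3.64 TPM in CD11b+CD48+SK cells, with medians of 0 TPM in the last 3. It reached 10 TPM in 38.9% of BM HSC, against 9.76% of WT-MPP, 19.6% of FL HSC and 0 of 47 CD11b+CD48+SK cells. By the limit of 3 counts, a count of 0 there leaves room for up to 6.38%. A single CD11b+CD48+SK cell held any Nr4a1.

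Ier2, a nuclear protein of the early growth response, was the most widespread of the 10. It ranged from 6.68 to 7430 TPM in BM HSC (median 1298 TPM), 7.38 to 2078 TPM in WT-MPP (median 541 TPM), 0.275 to 727 TPM in FL HSC (median 242 TPM) and 0 to 1655 TPM in CD11b+CD48+SK cells (median 181 TPM). At least 87.2% of the cells of each population held 10 TPM or more, so Ier2 differed in amount more than in presence. Its mean level was 9.89 ± 2.18 in BM HSC, 8.47 ± 2.02 in WT-MPP, 7.57 ± 1.71 in FL HSC and 6.77 ± 2.66 in CD11b+CD48+SK cells.

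The feedback genes were lower in CD11b+CD48+SK cells than in each of the other 3 populations. Dusp1, which dephosphorylates MAP kinases, ranged from 2.66 to 8822 TPM in BM HSC (median 639.9 TPM), 1.57 to 4495 TPM in WT-MPP (median 291 TPM), 0 to 2406 TPM in FL HSC (median 233 TPM) and 0 to 567 TPM in CD11b+CD48+SK cells (median 3.54 TPM). Its mean level was 8.20 ± 3.65, 7.71 ± 3.07 and 6.62 ± 3.14 in the first 3 and 3.36 ± 3.21 in CD11b+CD48+SK cells. Dusp1 reached 10 TPM in 82.1 to 83.3% of the cells of the first 3 and in 46.8% (interval 32.1 to 61.9%) of CD11b+CD48+SK cells. Zfp36 followed the same order of levels. It ranged from 1.97 to 5777 TPM in BM HSC (median 871 TPM), 2.32 to 5637 TPM in WT-MPP (median 445 TPM), 0.287 to 1301 TPM in FL HSC (median 257 TPM) and 0 to 820.1 TPM in CD11b+CD48+SK cells (median 54.6 TPM). It reached 10 TPM in 57.4% (42.2 to 71.7%) of CD11b+CD48+SK cells against 85.4 to 92.9% elsewhere.

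Set against all genes, most of the immediate early response genes lay at the low end in the comparisons with BM HSC. Counts are of genes that differed by at least 1 in mean log2(TPM+1), and they are no test. Fosb passed the filter through BM HSC alone (27.8% of cells at 1 TPM or more, at most 8.93% elsewhere). Its place among the genes lower than in BM HSC is therefore partly set by the filter. The comparisons share populations, so they are not independent. Between FL HSC and BM HSC all 10 genes were lower by at least 1, against 5.44% of 10856 genes lower and 25.6% higher. The median difference was -1.95 over the 10 genes and 0.31 over all genes. Fos differed by -3.32, Junb by -2.62, Ier2 by -2.32 and Nr4a1 by -2.22, while Fosb (-1.08) and Jund (-1.16) lay just past 1. Between WT-MPP and BM HSC 7 of 10 differed by at least 1, against 17.2% of all genes, and the 7 were all lower (1573 genes were lower and 290 higher among all 10856). The median was -1.47 against -0.22. Egr1 (-3.56), Nr4a1 (-2.62) and Fos (-2.17) led, and Jun (-0.13), Dusp1 (-0.49) and Zfp36 (-0.80) stayed within 1.

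The CD11b+CD48+SK cells lay lower than the other populations. Between CD11b+CD48+SK and WT-MPP, 8 of 10 genes were lower and 0 higher, against 5.01% and 19% of all genes, with a median of -1.96 against 0.21. Dusp1 (-4.34), Fos (-3.72), Zfp36 (-3.58) and Egr1 (-2.99) differed most, Nr4a1 differed by -0.72 (-1.48 with a pseudocount of 0.1 and -3.19 when TPM was averaged before the log2), and Fosb, near 0 in both, by 0.04. Against BM HSC all 10 were lower, with 11.8% of all genes lower and 13.4% higher, and the median was -3.67 against -0.001. Egr1 (-6.54), Fos (-5.89) and Dusp1 (-4.84) were among the 26 lowest of all genes. Against FL HSC 6 of 10 were lower and 0 higher, with 20.9% and 4.02% of all genes, and the median was -1.25 against -0.33. Between FL HSC and WT-MPP 4 of 10 were lower (Egr1, Jun, Fos and Dusp1) and 0 higher, against 3.08% and 33.9% of all genes.

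Most of the 10 genes were detected in many cells, and genes found in more cells differ by 1 more often. Among the 5249 genes that 50% or more of the cells of some population held at 1 TPM or more, which include 9 of the 10 (all but Fosb), 9 of 9 were lower in FL HSC than in BM HSC against 7.01% of genes. The counts were 8 of 9 against 7.33% for CD11b+CD48+SK and WT-MPP, and 6 of 9 against 33% for CD11b+CD48+SK and FL HSC. For WT-MPP and BM HSC they were 6 of 9 against 22.1%. Nr4a1 entered these counts through BM HSC alone (52.8% of cells at 1 TPM or more, at most 23.2% elsewhere). Its lower level than in BM HSC is therefore partly set by this filter.

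**Figure D2:**
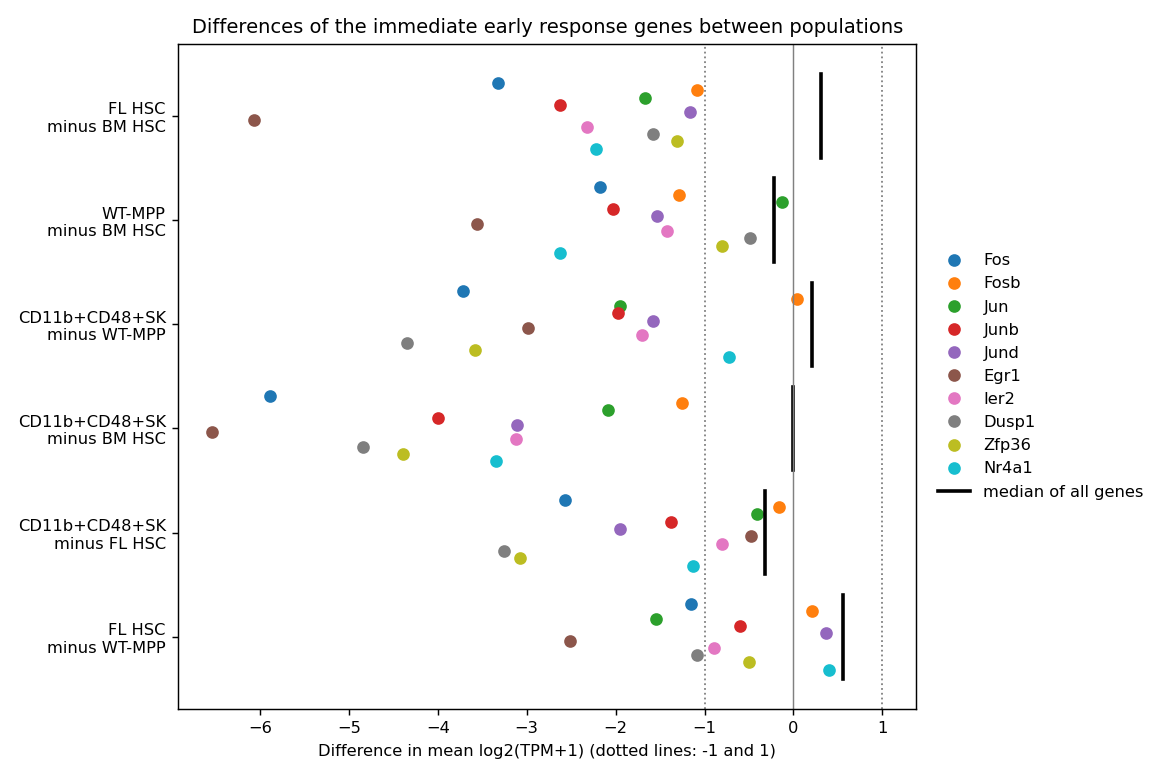
Difference in mean log2(TPM+1) of each gene for the 6 comparisons of 2 populations (horizontal axis, first population minus second; points are genes). Black bars mark the median over 10856 genes, and all 10 points lie left of -1 for FL HSC minus BM HSC and for CD11b+CD48+SK minus BM HSC.

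Most cells held several of these transcripts. The counts per cell follow in part from the share of cells with each gene, so they do not show that the genes occur together. The median number of genes at 10 TPM or more per cell was 8 of 10 in BM HSC, 6 in WT-MPP, 6 in FL HSC and 5 in CD11b+CD48+SK cells. All 10 were present at that level in 5 of 36 BM HSC, 0 of 41 WT-MPP, 1 of 56 FL HSC and 0 of 47 CD11b+CD48+SK cells. No cell was without any, and 10 of 47 CD11b+CD48+SK cells held at most 2, which no cell of the other populations did. The 10 transcripts together made up a median of 0.687% of all TPM in BM HSC, 0.325% in WT-MPP, 0.141% in FL HSC and 0.0474% in CD11b+CD48+SK cells. In single cells the summed share ran from 0.0446% to 3.41% in BM HSC.

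**Figure D3:**
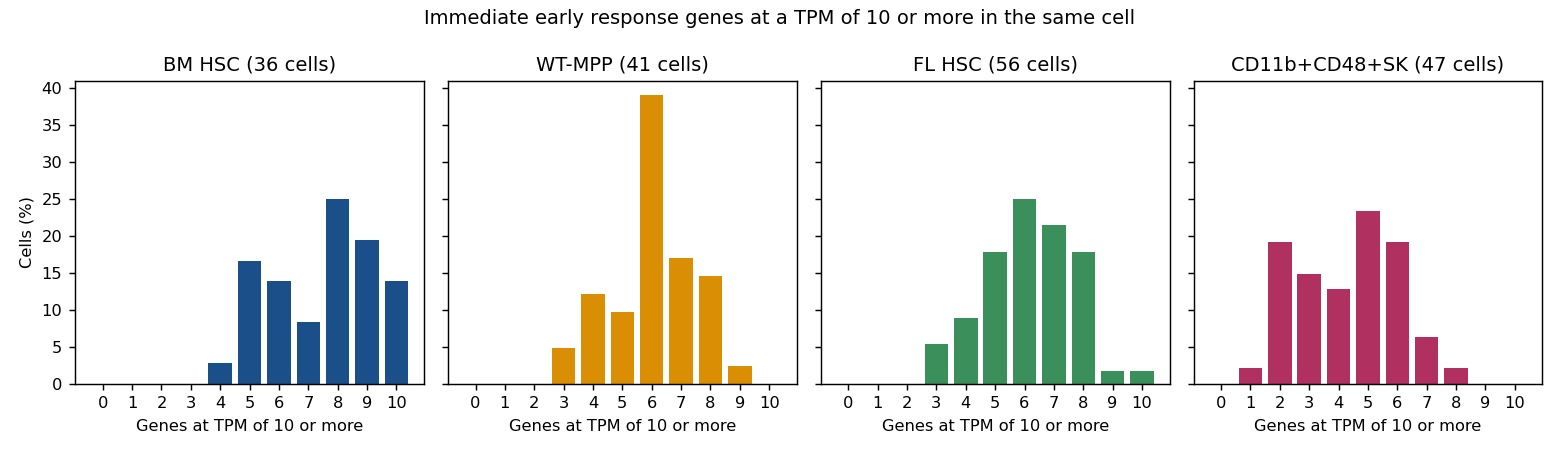
Percentage of the cells of each population (vertical axis) that held a given number of the 10 genes at 10 TPM or more (horizontal axis). BM HSC reach 10 genes in 13.9% of cells, and CD11b+CD48+SK cells end at 8 genes.

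The mean log2(TPM+1) over the 10 genes gives each cell a single level. Its median was 7.13 in BM HSC (3.21 to 10.32), 5.35 in WT-MPP (2.65 to 8.56), 4.63 in FL HSC (2.23 to 8.46) and 3.17 in CD11b+CD48+SK cells (1.16 to 5.55). The ranges overlapped, with 24 of 47 CD11b+CD48+SK cells and 7 of 56 FL HSC below the lowest BM HSC and 0 of either above the highest. BM HSC varied most (SD 2.0 against 1.17 to 1.29 elsewhere). Among BM HSC the level went with the number of genes detected in the cell (Spearman's rho 0.654 over 36 cells), and in the others hardly (0.206 over 41 WT-MPP, 0.048 over 56 FL HSC and 0.117 over 47 CD11b+CD48+SK cells). FL HSC had the most genes detected (median 5207 at 1 TPM or more) against 4442 in BM HSC, 3844 in WT-MPP and 4514 in CD11b+CD48+SK cells. With cells of at least 3500 genes alone, the median difference over the 10 genes was -2.56 between FL HSC and BM HSC and -2.21 between CD11b+CD48+SK and WT-MPP.

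**Figure D4:**
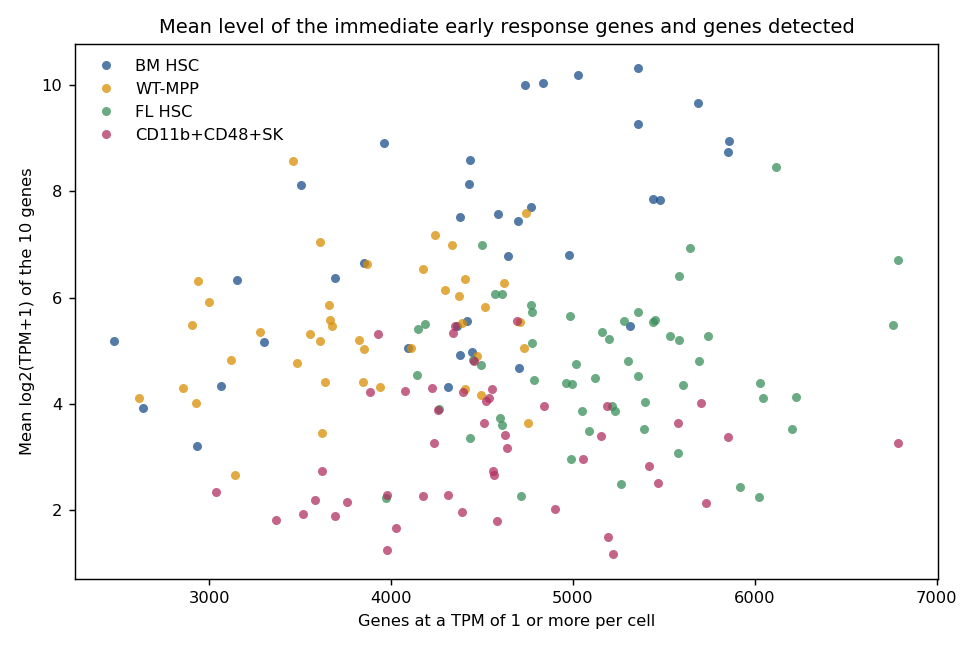
Mean log2(TPM+1) over the 10 genes (vertical axis) against the number of genes at 1 TPM or more (horizontal axis), 1 point per cell. BM HSC (rho 0.654) rise to the right, and no CD11b+CD48+SK cell exceeds 5.55.

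The genes varied together most among BM HSC. Over the 45 pairs of genes the median rho was 0.386 in BM HSC, 0.237 in FL HSC, 0.151 in CD11b+CD48+SK cells and 0.086 in WT-MPP. The rhos are over cells that share a preparation and differ in depth, and they are given as descriptions. After regressing ranks on the number of genes detected, the medians were 0.262, 0.235, 0.149 and 0.081, so the BM HSC value moved most and came close to that of FL HSC. Before this regression, 28 of 45 pairs in BM HSC reached 0.3 and 11 reached 0.5. Also before it, 3 pairs in WT-MPP reached 0.3, and 0 reached 0.5 in any population but BM HSC.

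Jund led the BM HSC pairs. It had the highest rho with Dusp1 (0.711, and 0.591 after regression), then with Nr4a1 (0.698, and 0.49 after) and Egr1 (0.643, and 0.549 after). Its median with the other 9 genes was 0.544 before regression. Jund and Nr4a1 each went with the number of genes detected in BM HSC (rho 0.632 and 0.647). Fosb stood apart, with a median of 0.06 and the lowest pair (Fosb with Junb, -0.259). Fos and Zfp36 formed the highest pair in FL HSC (0.489) and in CD11b+CD48+SK cells (0.473). In FL HSC, 33 of 56 cells held both Fos and Zfp36 at 10 TPM or more, 1 held Fos alone and 19 Zfp36 alone. In CD11b+CD48+SK cells 11 of 47 held both, 3 Fos alone and 16 Zfp36 alone. In WT-MPP the highest pair was Jund with Ier2 (0.435).

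**Figure D5:**
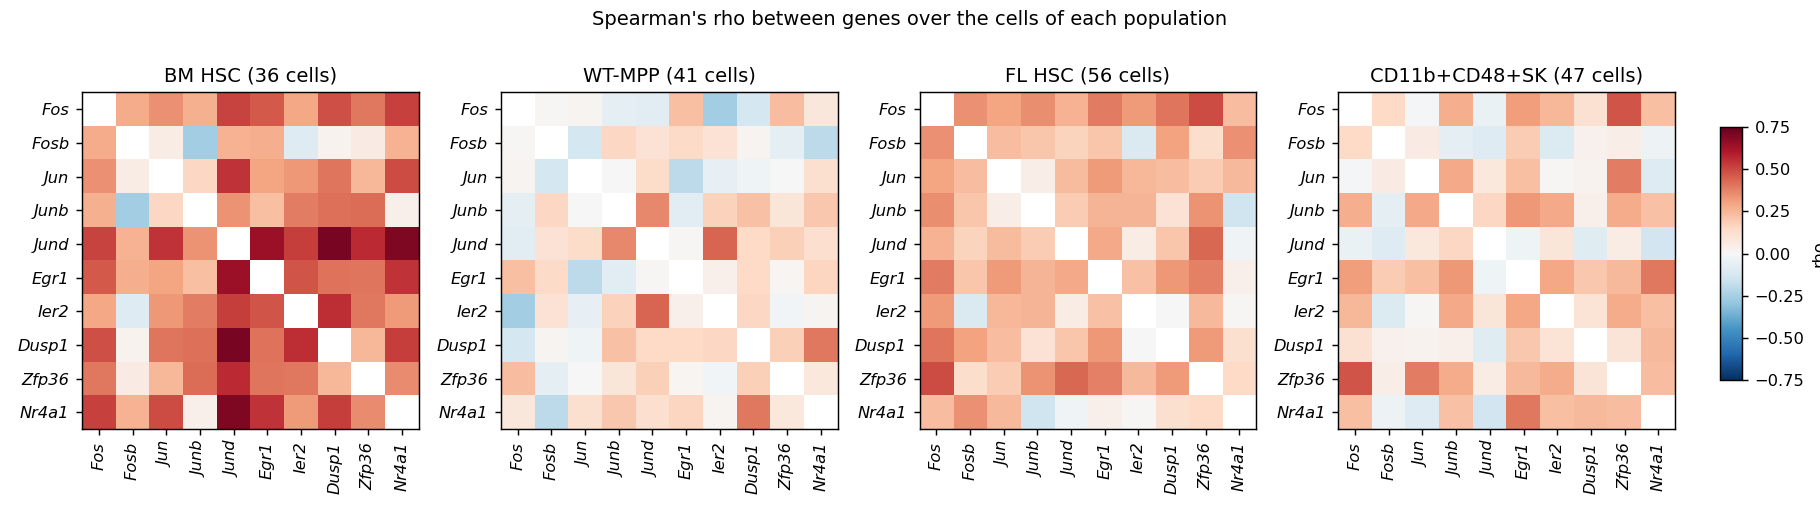
Spearman's rho (colour, from blue below 0 to red above 0) between each 2 of the 10 genes over the cells of each population. BM HSC are reddest, with 43 of 45 pairs above 0, and WT-MPP palest, with 33 of 45.

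Other genes followed the mean level of the 10 only weakly. Among 5384 genes held at 1 TPM or more by 20% or more of the cells in each of the 4 populations, the highest mean of the 4 within-population rhos was 0.372, for Srrm2, which encodes a splicing-speckle protein, against a median of 0.045 over all these genes. Then came Rhoh (0.332), Dtx3 (0.326), Sox4 (0.324), Cebpb (0.320), Rnf115 (0.309), Rn45s (0.308), Mtfr1l, Trip6 and Malat1 (0.307 each). Srrm2 reached 0.618 in BM HSC and 0.08 in CD11b+CD48+SK cells, so its value rests on part of the populations. The rhos of this ranking are not corrected for the number of genes detected, with which the mean of the 10 went in BM HSC (rho 0.654). Sox4, a progenitor transcription factor, was even across the 4 (0.311 to 0.349). Rn45s is a ribosomal RNA precursor with many copies, so its reads are uncertain.

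Other genes of the response did not all share the pattern. The medians over all genes to read beside these lists are 0.31 for FL HSC minus BM HSC (5.44% lower and 25.6% higher) and 0.21 for CD11b+CD48+SK minus WT-MPP (5.01% lower and 19% higher). Of 31 other primary response genes past the filter, 9 were lower and 4 higher by at least 1 in FL HSC than in BM HSC (median -0.47), and 5 were lower and 5 higher in CD11b+CD48+SK than in WT-MPP (median -0.13). Ppp1r15a, which restores translation after stress, came nearest to the 10. Its mean log2(TPM+1) was 8.31 in BM HSC, 5.38 in WT-MPP, 5.05 in FL HSC and 1.67 in CD11b+CD48+SK cells. Myc went its own way, at 6.76, 7.40, 3.91 and 8.77 in that order, so it was lowest in FL HSC and highest in CD11b+CD48+SK cells. Rhob (-2.37, FL HSC minus BM HSC), Klf6 (-2.32) and Btg1 (-1.79, both CD11b+CD48+SK minus WT-MPP) were also lower. Within populations the mean of the 36 listed genes in the table went with the mean of the 10 (rho 0.673 in BM HSC, 0.458 in WT-MPP, 0.365 in FL HSC and 0.404 in CD11b+CD48+SK cells). These rhos are not corrected for the number of genes detected, with which the mean of the 10 went in BM HSC (rho 0.654). Egr2, Egr3, Egr4 and Nr4a3 were not analysed here.

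Of 15 other feedback genes (phosphatases, mRNA decay factors and NF-kB inhibitors), 9 were lower and 1 higher in FL HSC than in BM HSC, with a median of -1.14. Zfp36l2, an mRNA decay factor (-2.43), Nfkbia, the inhibitor of NF-kB (-2.02), and Dusp2, a MAP kinase phosphatase (-1.60), led. Between CD11b+CD48+SK and WT-MPP 3 of 15 were lower and 0 higher (median 0.03), with Spry2 at -1.41, Zfp36l2 at -1.26 and Dusp2 at -1.08. Of 9 other AP-1, ATF and small Maf genes, 3 were lower and 1 higher in FL HSC than in BM HSC (median -0.51). Mafk (-1.90) and Mafg (-1.06) were lower and Batf (1.90) higher. In CD11b+CD48+SK against WT-MPP, Atf4 alone passed 1 (1.79, list median 0.26), with Jdp2 at -0.87 and Mafk at 0.80.

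Of 22 kinases and transcription factors upstream of the 10 genes, 6 were higher and 0 lower in FL HSC than in BM HSC (median 0.35), a share of higher genes near the 25.6% of all genes. Map2k2 (2.48), Rps6ka1 (1.62) and Mapk3 (1.57), which are kinases of the ERK branch, led. In CD11b+CD48+SK against WT-MPP 3 were higher and 1 lower (median 0.42), with Atf1 at 1.60, Rps6ka1 at 1.33 and Elk3 at -1.06. In FL HSC against WT-MPP 11 were higher and 0 lower (median 0.99), with 33.9% of all genes higher (median 0.56). In CD11b+CD48+SK cells against BM HSC 1 was higher and 3 lower, with 13.4% of all genes higher and 11.8% lower. The remaining comparisons also had more genes lower than higher. In WT-MPP against BM HSC 0 were higher and 6 lower (median -0.55), with 290 higher and 1573 lower among all 10856 genes (median -0.22). In CD11b+CD48+SK cells against FL HSC 0 were higher and 8 lower (median -0.54, against -0.33 and 20.9% lower over all genes). The mean of the upstream genes went with that of the 10 genes in BM HSC (rho 0.506) and WT-MPP (0.57), and less in CD11b+CD48+SK cells (0.142) and FL HSC (0.255). The rhos of list means are not corrected for the number of genes detected. The mean of the 10 went with that number in BM HSC (rho 0.654), and its part in these rhos was not tested. Of 12 heat shock chaperones, genes of another stress response, 8 were higher and 1 lower in CD11b+CD48+SK against WT-MPP (median 1.17), against 19% of all genes higher, with Dnajb1 at 1.87, Hspe1 at 1.78 and Dnaja1 at 1.55. In FL HSC against BM HSC 2 were higher and 0 lower (median 0.25), a smaller share than the 25.6% of all genes, with Dnaja1 at 1.80, Hsf1 at 1.11 and Hspa5 at -0.82. In WT-MPP against BM HSC 0 chaperones were higher and 5 lower (median -0.67), with 290 higher and 1573 lower among all 10856 genes. In CD11b+CD48+SK cells against BM HSC 1 was higher and 2 lower, with 13.4% of all genes higher and 11.8% lower. The mean of the chaperones was unrelated in rank to that of the 10 genes within each population (rho -0.042 to 0.049). Of 30 S and G2M phase genes, 26 were higher and 0 lower in FL HSC than in BM HSC (median 1.83), and 23 were higher and 0 lower in CD11b+CD48+SK than in WT-MPP (median 2.16). Cdt1, which licenses origins, was 3.05 and 3.75 higher in these comparisons, Birc5 and Ccnb1 were 3.20 and 2.87 higher in the first, and the helicase subunits Mcm7 and Mcm3 were 3.75 and 3.43 higher in the second. Within populations the cell cycle mean had a rho of -0.166 to 0.32 with the mean of the 10.

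The populations were checked against markers, with shares of cells at 1 TPM or more. The median of Hoxb5 was 65.7 TPM in CD11b+CD48+SK cells against 0 TPM in BM HSC and WT-MPP and 6.11 TPM in FL HSC. Cd48 was in 100% of CD11b+CD48+SK cells and in 2.78 to 17.9% of the others. Slamf1, encoding CD150, was in 63.9% of BM HSC, 55.4% of FL HSC and at most 7.32% of WT-MPP and CD11b+CD48+SK cells. Itgam, encoding CD11b, was in 36.2% of CD11b+CD48+SK cells and 16.1% of FL HSC, both sorted as CD11b+. It was in 2.78% of BM HSC and 4.88% of WT-MPP. Flt3, encoding CD135 of the MPP gate, was in 75.6% of WT-MPP but in 87.2% of CD11b+CD48+SK cells. It was in 53.6% of FL HSC and 25% of BM HSC. Kit was in 70.2% of CD11b+CD48+SK cells and in 85.4 to 86.1% of the others. Ly6a, encoding Sca1, was in 91.1% of FL HSC and in more of the others. Of the adult HSC list 9 of 10 and of the megakaryocyte list 3 of 4 were lower by at least 1 in CD11b+CD48+SK cells than in BM HSC. Of all genes 11.8% were lower there. In WT-MPP against BM HSC 6 of 10 adult HSC genes were lower and 1 higher, and 3 of 4 megakaryocyte genes were lower. Among all 10856 genes 1573 were lower and 290 higher in that comparison. In FL HSC against BM HSC, 2 of 10 adult HSC genes were lower and 3 higher (median -0.04), and 1 of 4 megakaryocyte genes was lower and 0 higher. Of all genes 5.44% were lower and 25.6% higher there. Median summed TPM of the megakaryocyte list was 210.3 in BM HSC, 2.57 in WT-MPP, 171.6 in FL HSC and 1.03 in CD11b+CD48+SK cells. Of the mast cell and basophil list, 4 of 6 in the table, Cpa3 was in 87.2% of CD11b+CD48+SK cells and in at most 13.9% of the others, and Mcpt8 was also higher there (by 1.96 against WT-MPP), while Gata2 was lower (-2.94 against BM HSC, -1.07 against WT-MPP and -1.54 against FL HSC). Of the neutrophil and monocyte list, 8 of 10 in the table, Lyz2 was in every cell, and median summed TPM was 885 to 1181, while each of S100a8, S100a9, Elane, Ltf and Csf1r was in at most 10.7% of the cells of any population. Erythroid and T cell lists had median sums of at most 1.31 TPM, and the B cell list of 2.72 to 209 TPM, nearly all of it Cd79b. The part of other cell types in the levels of the 10 genes was not tested.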

How the data were processed

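Single cells were sorted, their cDNA was amplified with a whole-transcriptome kit and each cell was sequenced as its own library. The authors aligned reads with HISAT2 2.1.0 to mm10 and obtained expression with StringTie 1.3.4, with bcl2fastq and SAMtools 0.1.19 also named in the submitters' processing notes. The deposited values are TPM, which sum to 1000000 in each of 180 cells used, so read depth per cell is unknown. The gene annotation and gene filter were not given in the sources used here. 1 column that matches no sample was not used. 0 pairs of cells held identical values. Cells were grouped by the labels.

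Levels are log2(TPM+1) with a pseudocount of 1, averaged over cells. Genes that 10% or more of the cells of a population held at 1 TPM or more were kept, and a difference of at least 1 was counted. Shares of cells used 1 and 10 TPM. Members of gene lists, and the lists themselves, were chosen with earlier results of these data known. From the pathway lists the 3 genes of largest difference in FL HSC minus BM HSC and in CD11b+CD48+SK minus WT-MPP were named, and marker lists are given by counts and chosen genes. Likeness to the 10 genes was ranked by mean within-population Spearman's rho with the mean of the 10 genes. Alternatives were other pseudocounts, log2 of the mean TPM, cell scaling by the median ratio, cells with at least 3500 genes, other filters and a difference of 2. Python 3.11.15 with numpy 2.4.6, pandas 2.3.3, scipy 1.17.1 and matplotlib 3.10.9 was used, and the steps were tested on simulated data. The study's tests over cells were not repeated.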

Additional observations from a re-analysis of the deposited data

How the results depend on the processing

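The 36 median differences over the 10 genes and the 16 median pairwise rhos under alternative settings moved by less than the spread over cells or pairs, and none changed direction. This limit is loose, since the SD of the mean level over BM HSC was 2.0. For FL HSC minus BM HSC the median difference of -1.95 ran from -1.36 (pseudocount of 10) to -2.56 (cells with at least 3500 genes). Counts of genes past the threshold changed by over 1.5 times in 8 of 42 cases. With a difference of 2 in place of 1, 5 genes passed for FL HSC minus BM HSC, 4 for WT-MPP minus BM HSC, 4 for CD11b+CD48+SK minus WT-MPP, 3 for CD11b+CD48+SK minus FL HSC and 1 for FL HSC minus WT-MPP, since fewer genes reach a larger difference. For FL HSC minus WT-MPP (4 genes) the count was 2 with a pseudocount of 10, 7 when TPM was averaged before the log2 and 2 with cells scaled by the median ratio, and the cause was not tested. Of the differences of single genes, 3 moved beyond the spread over cells and 357 did not, and the 3 were those of Nr4a1 when TPM was averaged first (CD11b+CD48+SK minus WT-MPP -3.19, minus BM HSC -7.64 and minus FL HSC -3.50). The spread of single genes is wide, so a gene counted as unmoved can still shift. Dusp1 (SD 3.65 over BM HSC) went from -0.49 to -1.77 for WT-MPP minus BM HSC with cells of at least 3500 genes. Fosb was above 0 for CD11b+CD48+SK minus WT-MPP except when TPM was averaged first, and Jund likewise for FL HSC minus WT-MPP. The median ratio was taken over genes at a TPM of 10 or more, a limit set after results had been seen because on simulated data a limit of 1 left more of the scale in place. With the limit of 1, Jun was highest in WT-MPP, and in the other 6 settings all 10 genes were highest in BM HSC. The scaling moved the median of all genes most for FL HSC minus WT-MPP, from 0.56 to 0.73, and averaging TPM first moved it to -0.10. Shares of cells with a gene moved outside their interval in 32 of 80 cases when the limit of 1 TPM was replaced by 10 TPM or by any value above 0. Of the 10 genes most like the mean, 7 were also found without Fos in it and 7 after centring all cells. No paired analysis was possible because the result comes from no test and cell numbers pair no samples. Depth per cell is unknown, and a value of 0 TPM does not show absence.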
